A study of Homo sapiens with 10 samples.

Results

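Levels of 60 genes that act in mitosis were followed in NK-92 cells, a human line established from a lymphoma of natural killer cells. The members were taken by symbol from 54628 symbols in the deposited table: mitotic cyclins and kinases, kinetochore proteins, spindle motors, regulators of the anaphase-promoting complex (APC/C) and related genes. All 60 were in the table and all passed the filter on low counts, among 20125 genes tested. The 10 libraries of polyadenylated RNA form 5 groups of 2: untreated cells at 0 h, cells given 500 µM deferoxamine (DFO), a small molecule that binds iron, for 6 h or 24 h, and cells given 10 µg/mL of the antibody PPMX-T003 (T003), which binds transferrin receptor 1, for 6 h or 24 h. All groups came from 1 cell line, and no group is of untreated cells kept for 24 h, so an agent and 24 h in culture cannot be told apart. Whether the 2 replicates of a group were separate cultures is not in the labels, and p-values therefore reflect only how far these samples spread, possibly for technical reasons.

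Mitosis is driven by the kinase CDK1 with B-type cyclins, which the CDC25 phosphatases switch on and the kinases WEE1 and PKMYT1 hold back. Microtubules of the spindle attach to chromosomes at kinetochores, and the spindle checkpoint keeps the APC/C, a ubiquitin ligase, inactive until every kinetochore is attached. Most of these genes are transcribed mainly in G2 and M phase, under the MuvB complex with B-MYB and FOXM1, which reach promoters through the cell cycle homology region (CHR), and together with NF-Y, which binds CCAAT boxes. Iron is needed by ribonucleotide reductase, the enzyme that makes DNA precursors, and dividing lymphoid cells take it up through transferrin receptor 1.

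The promoters shown here were searched for 2 sequence elements, which the choice of members did not use. In 48 members with an entry in the RefSeq promoter table (GRCh38.p14, 250 bases before to 50 after the start), 38 windows (79.2%) held TTTGAA or TTCGAA, the letters searched for the CHR on both strands, against 16.3% of all 27305 promoters of the same length. A match lay within 50 bases of the start in 66.7% of the members' windows and in 5.05% of all. CCAAT, also searched on both strands, was found in 75% of the members' windows and in 35.7% of all, and both elements in 58.3% and 6.48%. The stretches are the 120 bases before the start of 5 members that fell after 24 h of both agents, of CDC25A, which rose, and of MKI67, which was not called. Each is read 5′ to 3′ on the gene's strand with CHR and CCAAT matches on either strand in capitals (TTCAAA and ATTGG are the reverse complements).
CENPF (chr1:214603075-214603194, plus strand): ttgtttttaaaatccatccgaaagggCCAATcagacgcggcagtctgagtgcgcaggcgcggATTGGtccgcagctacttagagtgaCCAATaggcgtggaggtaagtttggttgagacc
BUB1 (chr2:110678064-110678183, minus strand): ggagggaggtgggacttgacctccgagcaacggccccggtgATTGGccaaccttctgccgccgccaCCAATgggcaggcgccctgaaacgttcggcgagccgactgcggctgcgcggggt
KIF11 (chr10:92593010-92593129, plus strand): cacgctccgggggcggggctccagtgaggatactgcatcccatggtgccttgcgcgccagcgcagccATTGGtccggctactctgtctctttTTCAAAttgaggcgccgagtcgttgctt
KIF20A (chr5:138178992-138179111, plus strand): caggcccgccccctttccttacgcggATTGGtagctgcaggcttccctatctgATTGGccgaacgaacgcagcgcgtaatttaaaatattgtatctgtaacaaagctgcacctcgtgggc
NCAPG (chr4:17810859-17810978, plus strand): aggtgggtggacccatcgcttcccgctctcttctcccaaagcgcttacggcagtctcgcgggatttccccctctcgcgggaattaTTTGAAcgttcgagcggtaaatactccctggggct
MKI67 (chr10:128126424-128126543, minus strand): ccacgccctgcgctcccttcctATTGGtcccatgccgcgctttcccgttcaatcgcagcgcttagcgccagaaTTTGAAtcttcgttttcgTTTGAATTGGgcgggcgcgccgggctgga
CDC25A (chr3:48188418-48188537, minus strand): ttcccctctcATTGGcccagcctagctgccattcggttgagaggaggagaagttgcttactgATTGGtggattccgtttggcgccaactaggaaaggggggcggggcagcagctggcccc
CENPF and BUB1 hold their CHR match after the start, beginning at base 41 and base 2 of the transcript, so it is not in the letters printed. KIF20A has 2 CCAAT matches in the printed stretch and CDC25A 2, with no CHR match in the whole window of either, and NCAPG has a CHR match and no CCAAT match. MKI67 carries 2 CHR and 2 CCAAT matches, 1 pair of which overlaps. These matches are a description of the letters and not of bound sites. Members called lower after 24 h of T003 held a CHR match in 19 of 22 windows and the other members in 19 of 26. For a CHR match within 50 bases of the start the shares were 68.2% and 65.4%, and for both elements 63.6% and 53.8%. CCAAT went the other way, at 72.7% and 76.9%, or 40.9% and 50% for at least 2 matches. None of these differences was tested.

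The libraries held 107117892 to 143575614 estimated counts each. Levels are given as counts scaled to library size (CPM) after TMM scaling, whose factors lay between 0.991 and 1.01. Over the 60 members, the log2 difference between replicates had an SD of 0.0336 to 0.0591 in the 5 groups, which sets the size of change that can be seen. The natural killer markers NKG7 (835 to 904 CPM) and NCAM1 (292 to 310 CPM) were present in every library, while CD7, FCER1G and TYROBP were at or under 2.97 CPM. The summed level of 13 such markers was 3573 to 3825 CPM at 24 h and 3327 to 3485 CPM in the 6 other libraries. Of the 13, IL2RB (1179 to 1304 CPM at 24 h, 977 to 1053 elsewhere), GNLY, PRF1, GZMB and TBX21 were higher in all 4 libraries at 24 h than in the 6 others. KLRD1 (39.6 to 42.3 CPM at 24 h, 49.96 to 57.6 elsewhere) and EOMES (149.5 to 158 and 171 to 186) were lower in all 4, and the other 6 overlapped. The part of these markers in the results was not tested. Of the T cell markers CD3E was high (418 to 458 CPM), TRAC was at 14.7 to 24.4 CPM and CD3G and CD8B were at 0. MS4A1, CD79B, HBB, EPCAM and KRT19 were at 0 in every library. The summed level of 5 epithelial or stromal markers was 1.81 to 3.26 CPM after 24 h of T003 and 0.783 to 1.65 CPM in the other groups, nearly all of it PECAM1, and its part in the results was not tested.

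After 24 h of either agent the mitotic genes were modestly lower as a group, led by CENPF, a large kinetochore protein, and BUB1, a spindle checkpoint kinase. Against untreated cells, 27 of 60 members fell with T003 and 2 rose, where 5.44% of all genes tested fell and 7.10% rose (edgeR quasi-likelihood test, adjusted p under 0.05). With DFO, 12 members fell and 2 rose, where 3.27% of all genes fell and 3.43% rose. The median log2 fold change of the members was -0.096 with T003 and -0.060 with DFO, beside -0.007 and -0.002 over all genes tested. Values were below 0 for 52 members with T003 and 49 with DFO, and the share of all genes below 0 was not counted. Libraries after 24 h lay wholly below both untreated ones for 45 members with T003 and 40 with DFO, where 26.9% and 25.1% of all genes did so. The genes tested include many at far lower levels than the members. In a fit to the 12842 genes with at least 1 CPM in 2 libraries, 31 members fell and 2 rose with T003, where 10.4% and 11.9% of genes did. With DFO 15 fell and 2 rose in that fit, where 6.42% and 5.89% of genes did. The 60 genes together took 0.948% and 0.960% of counts in the untreated libraries, and 0.961% to 0.992% at 6 h. At 24 h the share was 0.901% and 0.887% with DFO and 0.864% and 0.874% with T003, so the 4 libraries at 24 h lay below the 6 others. In bulk RNA, fewer cells in mitosis and less RNA per cell cannot be told apart. Both comparisons used the same untreated libraries and are not independent of each other. The members were chosen with earlier results of these data known, so their shares, here and below, are not independent support. Without untreated replicate 2 far fewer members fell with either agent, as did a smaller share of all genes. The members' median was then -0.089 with T003 and -0.048 with DFO. The same held for T003 without T003 24 h replicate 2 (median -0.094) and for DFO without DFO 24 h replicate 1 (median -0.060).

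**Figure D1:**
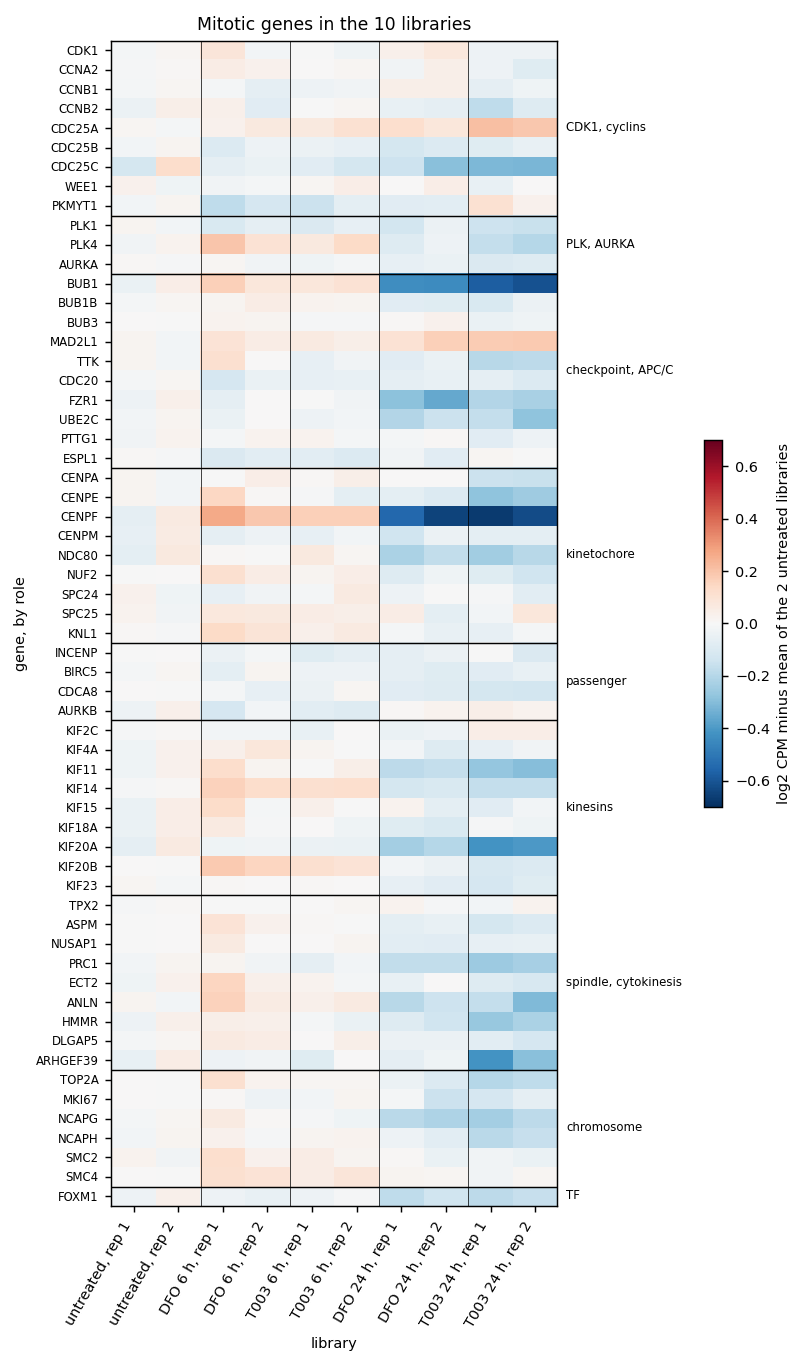
Level of each of the 60 members in each of the 10 libraries, as log2 CPM minus the mean of the 2 untreated libraries (colour scale in log2 units), with genes in rows by role and libraries in columns by group. The 4 columns at 24 h are the lowest for CENPF and BUB1, while CDC25A and MAD2L1 are raised there.

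Among the kinetochore genes, CENPF changed most of all 60 members in both comparisons with untreated cells at 24 h. CENPF was at 419 and 456 CPM in untreated cells, at 525 and 498 after 6 h of DFO, and at 490.0 and 490.3 after 6 h of T003. CENPF at 24 h was at 298 and 279 CPM with DFO and at 275 and 283 with T003. The 4 libraries at 24 h were lower than all 6 others, and the 4 libraries at 6 h were above both untreated ones. Its log2 fold change at 24 h was -0.60 (SE 0.043, adjusted p = 2.37e-05) with DFO and -0.65 (SE 0.043, adjusted p = 1.02e-05) with T003, a level 33.99% and 36.3% lower. NDC80 is a microtubule-binding subunit of the kinetochore. NDC80 was at 30.1 and 33.02 CPM in untreated cells, at 31.7 and 31.4 after 6 h of DFO, and at 33.1 and 31.8 after 6 h of T003. NDC80 at 24 h was at 27.03 and 27.97 CPM with DFO and at 26.6 and 27.6 with T003. Its libraries at 24 h were below the untreated ones with both agents, with log2 fold changes of -0.20 (SE 0.052, adjusted p = 0.0444) for DFO and -0.22 (SE 0.052, adjusted p = 0.0175) for T003. The DFO call of NDC80 ended when any library other than untreated replicate 1 was left out (adjusted p = 0.0619 to 0.389), and the T003 call ended on leaving out untreated replicate 2 (adjusted p = 0.175) or either T003 24 h library (0.117 and 0.0571). CENPE, the kinesin that moves chromosomes towards the spindle equator, was called lower with T003 and not with DFO. CENPE was at 97.3 and 94.6 CPM in untreated cells, at 106 and 96.5 after 6 h of DFO, and at 95.2 and 91.7 after 6 h of T003. CENPE at 24 h was at 91.4 and 89.7 CPM with DFO and at 78.8 and 80.6 with T003. The T003 libraries at 24 h were the lowest of the 10, with a log2 fold change of -0.27 (SE 0.041, adjusted p = 0.00174), while the DFO value was -0.08 (adjusted p = 0.307). The difference between the agents for CENPE was -0.18 (adjusted p = 0.0581), which did not pass the test. The other 6 kinetochore genes, CENPA, CENPM, NUF2, SPC24, SPC25 and KNL1, were not called, with T003 values from -0.15 (CENPA) to 0.03 (SPC25). CENPA is the histone variant that marks centromeres, NUF2, SPC24 and SPC25 are partners of NDC80 in 1 complex, and KNL1 is the scaffold on which BUB1 docks.

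CDK1 and MKI67, the genes usually read as signs of proliferation, did not pass the test at 24 h. CDK1 was at 112 and 115 CPM in untreated cells, at 120.4 and 112 after 6 h of DFO, and at 113 and 111 after 6 h of T003. CDK1 at 24 h was at 116 and 119.5 CPM with DFO and at 111 and 111 with T003. All 10 libraries thus had CDK1 between 111 and 120.4 CPM. MKI67, which encodes the Ki-67 antigen, was at 1093 and 1086 CPM in untreated cells, at 1096 and 1062 after 6 h of DFO, and at 1076 and 1104 after 6 h of T003. MKI67 at 24 h was at 1078 and 983 CPM with DFO and at 1004 and 1043 with T003. Against untreated cells the log2 fold change of CDK1 was 0.05 (SE 0.034, adjusted p = 0.45) with DFO and -0.03 (SE 0.034, adjusted p = 0.627) with T003, and that of MKI67 -0.08 (SE 0.038, adjusted p = 0.281) and -0.09 (SE 0.038, adjusted p = 0.167). The range of CDK1 over all 10 libraries was narrower than the step of CENPF between 6 h and 24 h. Leaving out DFO 24 h replicate 1 gave MKI67 a call with DFO (log2 fold change -0.14, adjusted p = 0.0345), and leaving out DFO 24 h replicate 2 gave it one with T003 (-0.09, adjusted p = 0.0484). Within each library, CENPF minus CDK1 in log2 CPM was 1.23 to 1.36 in the 4 libraries at 24 h (mean 1.31 ± 0.063, SD, n = 4) and 1.90 to 2.15 in the 6 others (2.07 ± 0.101, SD, n = 6). The difference of -0.76 had an exact permutation p of 0.00952 (two-sided), the smallest that 4 against 6 libraries can give. The permutation, here and for MKI67 below, counted the 10 libraries as separate units. They form 5 groups of 2 whose replicates may not be separate cultures, so the p may be too small. For CENPF minus MKI67 the values were -1.88 to -1.81 (mean -1.85 ± 0.029, SD, n = 4) and -1.38 to -1.06 (-1.18 ± 0.118, SD, n = 6), a difference of -0.67 with the same exact permutation p of 0.00952. These differences within a library do not depend on library scaling. CENPF changed most of the 60 members, which were chosen with earlier results of these data known, so neither p is independent support. Per kilobase of transcript in untreated cells, CENPF stood at 42.5 CPM per kb, CDK1 at 60.03 and MKI67 at 85.7. Over the 60 members that level ran from 5.91 for ARHGEF39 to 236 for UBE2C.

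**Figure D2:**
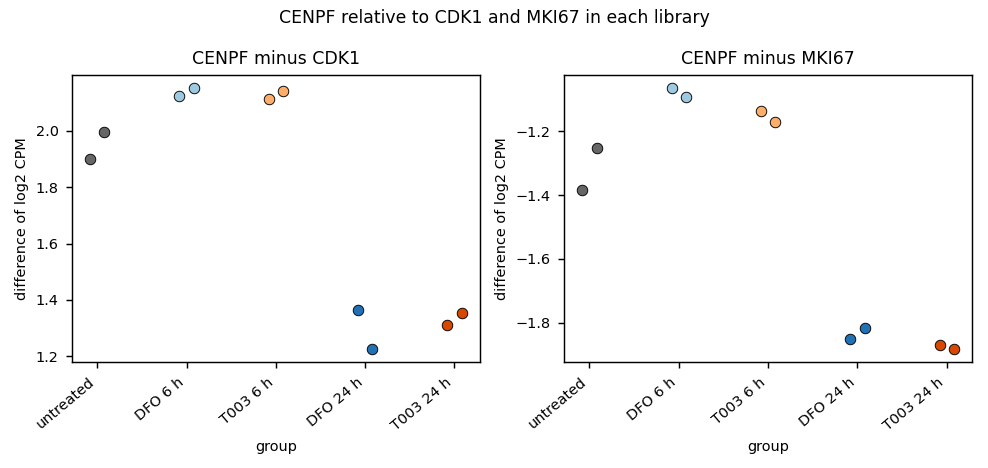
CENPF relative to CDK1 (left) and to MKI67 (right) in each library, as a difference of log2 CPM, with 1 point per library and 2 libraries per group. The 4 libraries at 24 h lie at 1.23 to 1.36 and at -1.88 to -1.81, below all 6 others in both panels.

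In the group of the spindle checkpoint, APC/C and separase, 4 of 10 members fell with T003 and 3 with DFO, and MAD2L1 rose with both. Over all genes 5.44% and 3.27% fell, and 7.10% and 3.43% rose. The direct test between the agents at 24 h called 0 of the 10. BUB1 is the checkpoint kinase that also marks centromeres through histone phosphorylation. BUB1 was at 252 and 270.0 CPM in untreated cells, at 293 and 276 after 6 h of DFO, and at 276 and 280.4 after 6 h of T003. BUB1 at 24 h was at 193 and 192 CPM with DFO and at 175 and 171 with T003. Its 4 libraries at 24 h were the lowest, with no overlap with any other, and the log2 fold changes were -0.44 (SE 0.036, adjusted p = 5.27e-05) for DFO and -0.59 (SE 0.036, adjusted p = 7.4e-06) for T003. FZR1 (CDH1) activates the APC/C late in mitosis and in G1. FZR1 was at 75.8 and 79.4 CPM in untreated cells, at 74.1 and 77.7 after 6 h of DFO, and at 77.5 and 76.4 after 6 h of T003. FZR1 at 24 h was at 63.5 and 60.4 CPM with DFO and at 67.2 and 66.2 with T003. Of the 11 members that fell with both agents, FZR1 alone had a lower value with DFO (-0.32, SE 0.036, adjusted p = 0.000371) than with T003 (-0.22, SE 0.036, adjusted p = 0.0027), its libraries at 24 h lay below all others, and the difference between the agents was 0.11 (adjusted p = 0.197). UBE2C is the ubiquitin-conjugating enzyme of the APC/C. UBE2C was at 181 and 186 CPM in untreated cells, at 178 and 184 after 6 h of DFO, and at 179 and 181 after 6 h of T003. UBE2C at 24 h was at 159 and 166 CPM with DFO and at 163 and 151 with T003. It was -0.18 (SE 0.036, adjusted p = 0.0149) with DFO and -0.22 (SE 0.037, adjusted p = 0.00248) with T003, its libraries at 24 h lying below the untreated ones, and the DFO call ended on leaving out untreated replicate 2 (adjusted p = 0.157) or DFO 24 h replicate 1 (0.134). MAD2L1 (MAD2), which holds the APC/C activator CDC20 inactive, moved the other way. MAD2L1 was at 122 and 118 CPM in untreated cells, at 128 and 124 after 6 h of DFO, and at 125 and 123 after 6 h of T003. MAD2L1 at 24 h was at 129 and 135 CPM with DFO and at 136 and 136 with T003. Its libraries at 24 h were above the untreated ones, at 0.14 (SE 0.03, adjusted p = 0.0203) with DFO and 0.18 (SE 0.03, adjusted p = 0.0025) with T003, and the DFO call ended on leaving out untreated replicate 2 (adjusted p = 0.157) or DFO 24 h replicate 2 (0.149). TTK, the kinase at the head of the checkpoint, fell with T003 (-0.19, adjusted p = 0.00804) and was -0.06 (adjusted p = 0.422) with DFO. The T003 call of TTK ended on leaving out untreated replicate 1 (adjusted p = 0.0559). BUB1B, BUB3, CDC20, the securin gene PTTG1 and the separase gene ESPL1 were not called at 24 h against untreated cells, with T003 values from -0.08 (CDC20) to 0.01 (ESPL1) and DFO values from -0.08 (BUB1B) to 0.02 (BUB3).

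**Figure D3:**
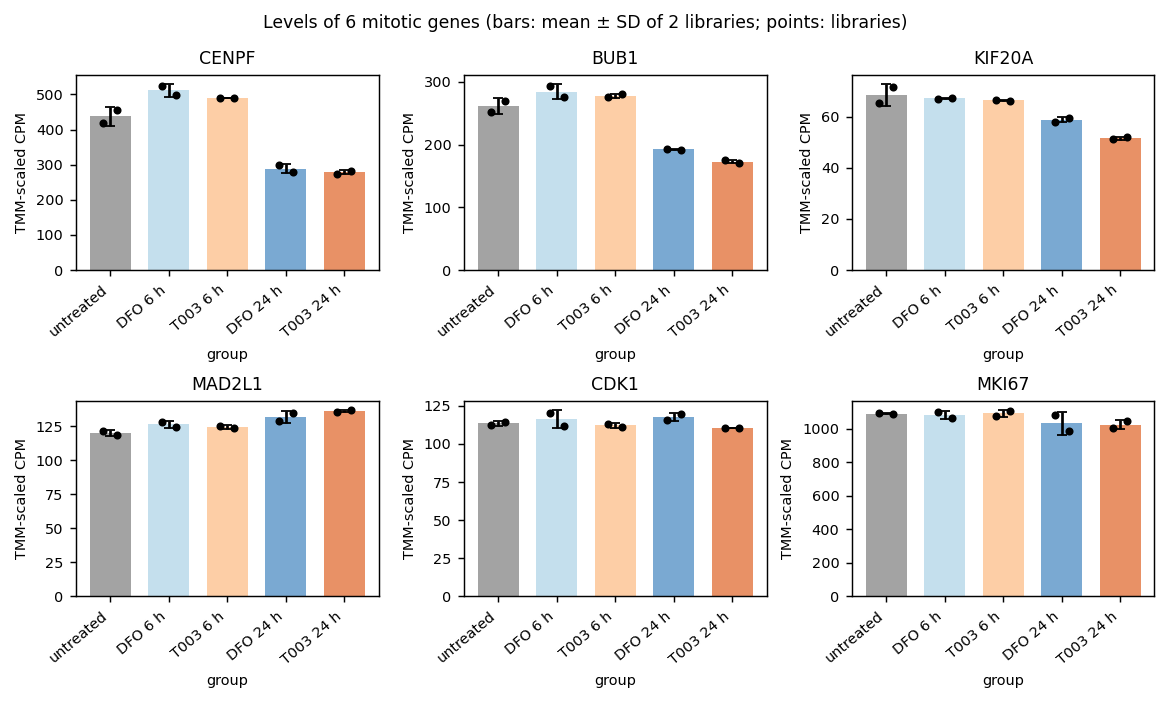
Level in TMM-scaled CPM (y axis, from 0) of CENPF, BUB1, KIF20A, MAD2L1, CDK1 and MKI67 in the 5 groups, with bars for the mean, error bars for the SD of 2 libraries and 1 point per library. CENPF, BUB1 and KIF20A are lowest in the 4 libraries at 24 h, MAD2L1 is above untreated there, and CDK1 stays between 111 and 120.4 CPM.

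Of CDK1, the cyclins and their regulators, the CDC25 phosphatases moved in different directions and the cyclins were not called. CDC25A acts at the G1/S step as well as at entry into mitosis. CDC25A was at 142 and 140.3 CPM in untreated cells, at 144 and 148 after 6 h of DFO, and at 148 and 152 after 6 h of T003. CDC25A at 24 h was at 154 and 149 CPM with DFO and at 164 and 161 with T003. It rose by 0.20 (SE 0.026, adjusted p = 0.000698) on the log2 scale with T003, and its value with DFO was 0.10 (SE 0.026, adjusted p = 0.0496), a call that ended when any library other than those after 6 h of DFO was left out (adjusted p = 0.0592 to 0.276). CDC25C, which acts at entry into mitosis, had the widest error of the CDK1 regulators. CDC25C was at 15.6 and 18.5 CPM in untreated cells, at 16.2 and 16.4 after 6 h of DFO, and at 16.02 and 15.6 after 6 h of T003. CDC25C at 24 h was at 15.3 and 13.8 CPM with DFO and at 13.6 and 13.6 with T003. It was lower with T003 (-0.32, SE 0.083, adjusted p = 0.0276), a call that ended on leaving out untreated replicate 2 (adjusted p = 0.251) or either T003 24 h library (0.121 and 0.124), and was -0.22 (adjusted p = 0.164) with DFO. CDC25B, which starts CDK1 activation at the centrosome, was called lower with DFO. CDC25B was at 124 and 127 CPM in untreated cells, at 117 and 122 after 6 h of DFO, and at 121 and 120.3 after 6 h of T003. CDC25B at 24 h was at 115 and 117 CPM with DFO and at 118 and 120.4 with T003. Its DFO value was -0.11 (SE 0.028, adjusted p = 0.0414), a call that ended when any library other than those after 6 h of DFO was left out (adjusted p = 0.0619 to 0.337), and its T003 value -0.07 (adjusted p = 0.151). CCNA2, CCNB1 and CCNB2, the A and B cyclins of mitosis, and the CDK1 inhibitors WEE1 and PKMYT1 lay between -0.14 (CCNB2) and 0.07 (PKMYT1) with T003 and between -0.07 (PKMYT1) and 0.04 (CCNB1) with DFO, none called.

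All 3 polo and aurora A kinases, PLK1, PLK4 and AURKA, fell with T003, where 5.44% of all genes did. PLK1 acts at centrosomes, kinetochores and the midbody. PLK1 was at 140.1 and 137 CPM in untreated cells, at 128 and 133 after 6 h of DFO, and at 129 and 133 after 6 h of T003. PLK1 at 24 h was at 126 and 134 CPM with DFO and at 125 and 124 with T003. PLK4 starts centriole duplication. PLK4 was at 51.7 and 53.6 CPM in untreated cells, at 60.2 and 56.4 after 6 h of DFO, and at 55.2 and 57.7 after 6 h of T003. PLK4 at 24 h was at 49.5 and 51.4 CPM with DFO and at 46.9 and 45.8 with T003. AURKA builds the spindle poles. AURKA was at 176 and 175 CPM in untreated cells, at 177 and 173 after 6 h of DFO, and at 172 and 174 after 6 h of T003. AURKA at 24 h was at 168 and 170.2 CPM with DFO and at 164 and 165 with T003. For each of the 3 the T003 libraries at 24 h were below both untreated ones, with log2 fold changes of -0.15 (SE 0.033, adjusted p = 0.0122) for PLK1, -0.18 (SE 0.042, adjusted p = 0.0152) for PLK4 and -0.10 (SE 0.022, adjusted p = 0.0176) for AURKA. The DFO values were -0.09 (adjusted p = 0.173), -0.06 (adjusted p = 0.502) and -0.05 (adjusted p = 0.248). The differences between the agents at 24 h, -0.07 (adjusted p = 0.422), -0.12 (adjusted p = 0.204) and -0.04 (adjusted p = 0.42), did not pass the test either. The T003 call of PLK1 ended on leaving out either untreated library (adjusted p = 0.0776 and 0.0513) or either T003 24 h library (0.0588 and 0.0851), that of PLK4 on leaving out untreated replicate 2 (adjusted p = 0.128) or T003 24 h replicate 2 (0.105), and that of AURKA on leaving out either untreated library (adjusted p = 0.0832 and 0.0814) or either T003 24 h library (0.0927 and 0.0785).

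Of the 9 kinesins, 5 fell with T003 and 3 with DFO, where 5.44% and 3.27% of all genes fell. In the direct test between the agents at 24 h 1 of the 9, KIF20A, was called. KIF20A (MKLP2) carries the chromosomal passenger complex to the central spindle. KIF20A was at 65.3 and 71.5 CPM in untreated cells, at 67.02 and 67.2 after 6 h of DFO, and at 66.5 and 66.05 after 6 h of T003. KIF20A at 24 h was at 58.04 and 59.4 CPM with DFO and at 51.1 and 51.8 with T003. Its libraries were lower at 24 h than in any earlier group and lower with T003 than with DFO, with log2 fold changes of -0.41 (SE 0.04, adjusted p = 0.000102) and -0.22 (SE 0.04, adjusted p = 0.00758), and the DFO call ended on leaving out untreated replicate 2 (adjusted p = 0.0784) or DFO 24 h replicate 1 (0.0614). KIF11 (Eg5) pushes the spindle poles apart. KIF11 was at 152 and 159 CPM in untreated cells, at 169.6 and 158 after 6 h of DFO, and at 155 and 160.1 after 6 h of T003. KIF11 at 24 h was at 137 and 139 CPM with DFO and at 129 and 127 with T003. Its value was -0.28 (SE 0.035, adjusted p = 0.000497) with T003 and -0.17 (SE 0.035, adjusted p = 0.0133) with DFO, and the latter call ended on leaving out untreated replicate 2 (adjusted p = 0.143) or either DFO 24 h library (0.0869 and 0.0726). KIF14 acts with PRC1 in cytokinesis. KIF14 was at 167 and 168 CPM in untreated cells, at 187 and 182 after 6 h of DFO, and at 181 and 182 after 6 h of T003. KIF14 at 24 h was at 154 and 155 CPM with DFO and at 149 and 149 with T003. It was -0.16 (SE 0.022, adjusted p = 0.000802) with T003 and -0.11 (SE 0.022, adjusted p = 0.0111) with DFO, and the DFO call ended on leaving out untreated replicate 2 (adjusted p = 0.113) or either DFO 24 h library (0.0967 and 0.0689). For KIF11 and KIF14 the libraries at 24 h lay below the untreated ones, and those at 6 h were the highest for KIF14. KIF20B and KIF23, both of the central spindle, fell with T003 (-0.11, adjusted p = 0.0174, and -0.10, adjusted p = 0.0219) and were -0.03 (adjusted p = 0.637) and -0.07 (adjusted p = 0.148) with DFO. The T003 call of KIF20B ended on leaving out either untreated library (adjusted p = 0.0824 and 0.0755) or either T003 24 h library (0.0931 and 0.0623), and that of KIF23 on leaving out either untreated library (adjusted p = 0.129 and 0.0592) or either T003 24 h library (0.138 and 0.0528). KIF2C, KIF4A, KIF15 and KIF18A were not called, from -0.05 (KIF15) to 0.05 (KIF2C) with T003 and -0.10 (KIF18A) to -0.02 (KIF15) with DFO.

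Among genes of spindle assembly and cytokinesis, 6 of 9 fell with T003 and 1, PRC1, with DFO, where 5.44% and 3.27% of all genes fell. In the direct test between the agents at 24 h 1 of the 9, ARHGEF39, was called. PRC1 bundles the antiparallel microtubules of the central spindle. PRC1 was at 127 and 130.3 CPM in untreated cells, at 130.2 and 127 after 6 h of DFO, and at 123 and 127 after 6 h of T003. PRC1 at 24 h was at 114 and 114 CPM with DFO and at 108 and 109 with T003. The 4 libraries at 24 h were the lowest, at -0.24 (SE 0.027, adjusted p = 0.000222) with T003 and -0.17 (SE 0.027, adjusted p = 0.00303) with DFO. HMMR (RHAMM) binds microtubules near the spindle poles. HMMR was at 103 and 108 CPM in untreated cells, at 108 and 108 after 6 h of DFO, and at 104 and 102 after 6 h of T003. HMMR at 24 h was at 98.9 and 95.4 CPM with DFO and at 87.6 and 90.1 with T003. It fell with T003 (-0.24, SE 0.032, adjusted p = 0.000641) and was -0.12 (adjusted p = 0.0543) with DFO, which became a call without untreated replicate 1 (adjusted p = 0.0414). ARHGEF39 is a guanine nucleotide exchange factor. ARHGEF39 was at 20.96 and 22.5 CPM in untreated cells, at 21.2 and 21.4 after 6 h of DFO, and at 20.5 and 21.8 after 6 h of T003. ARHGEF39 at 24 h was at 20.8 and 21.3 CPM with DFO and at 16.2 and 17.7 with T003. Its T003 libraries at 24 h were the lowest, at -0.36 (SE 0.063, adjusted p = 0.0038) against untreated cells, a call that ended on leaving out untreated replicate 2 (adjusted p = 0.0505), while its DFO value was -0.05 (adjusted p = 0.784). ASPM of the spindle poles, ANLN of the contractile ring and DLGAP5 of the spindle fibres fell with T003 by 0.11, 0.23 and 0.10 on the log2 scale and were -0.06, -0.17 and -0.04 with DFO, not called. The T003 call of ASPM ended on leaving out either untreated library (adjusted p = 0.0651 and 0.0983) or either T003 24 h library (0.112 and 0.0529), and that of ANLN on leaving out either untreated library (adjusted p = 0.0878 and 0.0588) or T003 24 h replicate 2 (0.133). That of DLGAP5 ended when any 1 of the 10 libraries was left out (adjusted p = 0.0606 to 0.271). TPX2, NUSAP1 and ECT2 were not called with either agent, from -0.10 (ECT2) to 0.0035 (TPX2) with T003.

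In the chromosomal passenger complex, the assembly of AURKB, INCENP, BIRC5 and CDCA8 that corrects faulty attachments, CDCA8 alone was called. CDCA8 was at 206 and 205 CPM in untreated cells, at 204 and 198 after 6 h of DFO, and at 200.0 and 208 after 6 h of T003. CDCA8 at 24 h was at 195 and 193 CPM with DFO and at 189 and 188 with T003. Its T003 value was -0.12 (SE 0.025, adjusted p = 0.00806), a call that ended on leaving out untreated replicate 2 (adjusted p = 0.0526) or T003 24 h replicate 2 (0.0594), and its DFO value -0.08 (adjusted p = 0.0808). BIRC5 (survivin) was at 215 and 219 CPM in untreated cells, at 207 and 219 after 6 h of DFO, and at 212 and 212 after 6 h of T003. BIRC5 at 24 h was at 208 and 205 CPM with DFO and at 206 and 209 with T003. Its values of -0.06 with T003 (adjusted p = 0.191) and -0.07 with DFO (adjusted p = 0.177) did not pass the test. With T003 and DFO in that order, AURKB (0.03 and 0.02) and INCENP (-0.05 and -0.05) were not called. Of the genes of chromosome structure, NCAPG and NCAPH, subunits of condensin I, and TOP2A, which untangles sister DNA, fell with T003. NCAPG was at 141 and 144 CPM in untreated cells, at 149 and 143 after 6 h of DFO, and at 142 and 139 after 6 h of T003. NCAPG at 24 h was at 125 and 122 CPM with DFO and at 121 and 126 with T003. NCAPG was -0.21 (SE 0.029, adjusted p = 0.00101) with T003 and -0.20 (SE 0.029, adjusted p = 0.00198) with DFO, with all 4 libraries at 24 h under both untreated ones. NCAPH was at 129.6 and 133 CPM in untreated cells, at 134 and 131 after 6 h of DFO, and at 133 and 134 after 6 h of T003. NCAPH at 24 h was at 128 and 125 CPM with DFO and at 115 and 118 with T003. TOP2A was higher in all 4 libraries at 6 h than in any other. TOP2A was at 718 and 713 CPM in untreated cells, at 772 and 727 after 6 h of DFO, and at 722 and 724 after 6 h of T003. TOP2A at 24 h was at 696 and 670.1 CPM with DFO and at 624 and 632 with T003. Both genes were lowest in the 2 T003 libraries at 24 h. The T003 values were -0.17 (SE 0.026, adjusted p = 0.00162) for NCAPH and -0.19 (SE 0.029, adjusted p = 0.00175) for TOP2A, and the DFO values -0.05 (adjusted p = 0.311) and -0.07 (adjusted p = 0.233). SMC2 (-0.04 with T003 and -0.02 with DFO) and SMC4 (-0.0048 and 0.02), the core ATPases of the same complex, were not called. FOXM1, the transcription factor that drives many genes of G2 and M phase, fell with both agents. FOXM1 was at 124 and 130.3 CPM in untreated cells, at 124 and 123 after 6 h of DFO, and at 124 and 127 after 6 h of T003. FOXM1 at 24 h was at 113 and 116 CPM with DFO and at 112 and 114 with T003. Its libraries at 24 h were below the untreated ones, at -0.17 (SE 0.029, adjusted p = 0.00271) with T003 and -0.16 (SE 0.029, adjusted p = 0.00805) with DFO, and the DFO call ended on leaving out untreated replicate 2 (adjusted p = 0.115) or DFO 24 h replicate 1 (0.0826).

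**Figure D4:**
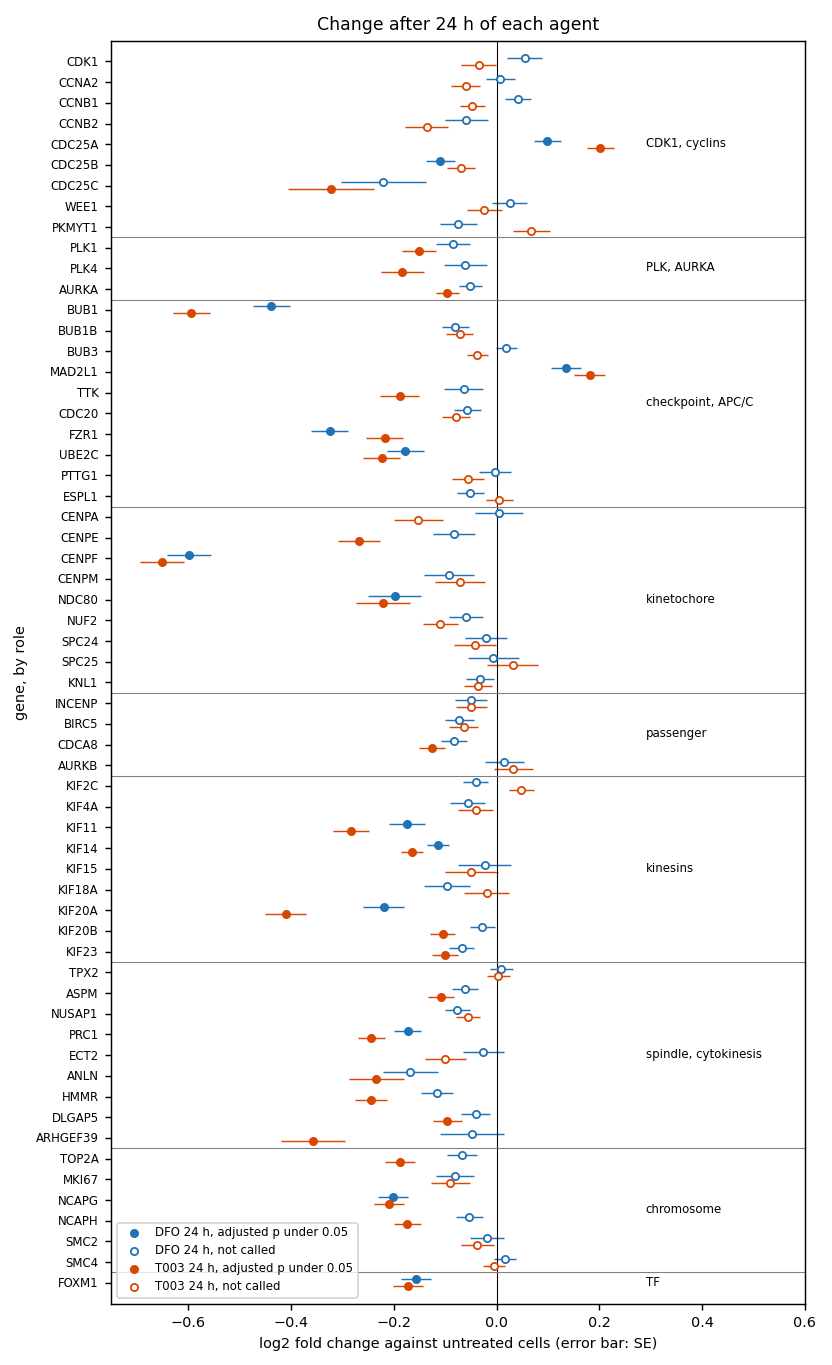
Log2 fold change of each member after 24 h of DFO (blue) or T003 (orange) against untreated cells, in rows by role, with the SE as error bar and filled points for an adjusted p under 0.05. CENPF and BUB1 lie farthest to the left for both agents, and CDC25A and MAD2L1 are the filled points to the right of 0.

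At 6 h none of the 60 members passed the edgeR test with either agent, where 0.00994% of all genes fell and 0.0149% rose with DFO, and 0.00497% fell and 0.0248% rose with T003. At an unadjusted p under 0.05 there were 18 members with DFO, 5 lower and 13 higher, against 12.4% of all genes in either direction, and 11 with T003, 4 lower and 7 higher, against 7.53%. DESeq2 called 3 members lower and 6 higher with DFO, of 49 members with an adjusted p, where it called 6.2% of 4518 genes with one lower and 5.36% higher. With T003 it called 2 members higher and 0.55% of all genes. Limma-voom called 2 members higher with DFO, and 0.0646% of all genes, and none with T003. The values farthest above 0 with DFO were CENPF at 0.22 (adjusted p = 0.155), KIF20B at 0.17 (adjusted p = 0.0692), PLK4 at 0.15 (adjusted p = 0.225) and KIF14 at 0.14 (adjusted p = 0.0807). With T003 the same genes were at 0.16, 0.10, 0.10 and 0.11, and both sets of values share the untreated libraries. BUB1, which was among the lowest at 24 h, was 0.12 (adjusted p = 0.233) with DFO and 0.09 (adjusted p = 0.63) with T003 at 6 h.

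Between 6 h and 24 h of the same agent, comparisons that use no untreated library, 24 members fell with DFO, where 4.60% of all genes fell. None rose in the edgeR test, where 5.29% of all genes did, while 1 was higher by DESeq2, which called 11.1% of genes higher, 0 by limma-voom and 1 at an unadjusted p under 0.05, a level that 22.7% of all genes reached in either direction. With T003 28 fell and 4 rose, where 5.93% of all genes fell and 7.55% rose. The members' median log2 fold change was -0.085 with DFO and -0.092 with T003, and CENPF (-0.82, SE 0.043, adjusted p = 1.95e-06, and -0.81, SE 0.043, adjusted p = 2.08e-06) and BUB1 (-0.56, SE 0.036, adjusted p = 4.92e-06, and -0.68, SE 0.036, adjusted p = 2.08e-06) again lay lowest. KIF14 was -0.26 (adjusted p = 4.62e-05) and -0.28 (adjusted p = 1.86e-05), KIF11 -0.25 (adjusted p = 0.00128) and -0.30 (adjusted p = 0.000267), NCAPG -0.24 (adjusted p = 0.000472) and -0.19 (adjusted p = 0.00144) and PRC1 -0.17 (adjusted p = 0.00245) and -0.20 (adjusted p = 0.000606). PLK4, whose libraries at 6 h were above the untreated ones, was -0.21 (adjusted p = 0.00937) with DFO and -0.28 (adjusted p = 0.00113) with T003, and the DFO call ended on leaving out DFO 6 h replicate 1 (adjusted p = 0.0977) or DFO 24 h replicate 1 (0.0796). Of the members that fell, 22 were shared, which is 91.7% of the DFO list and 78.6% of the T003 list, while over all genes 571 were shared, 61.7% and 47.8%. In most fits that left out 1 library, the DFO calls of DLGAP5, NDC80, FOXM1 and SMC4 and the T003 calls of SMC4 and BUB1B ended. CENPF, BUB1, FZR1, KIF11, KIF14, KIF20B, NCAPG and PRC1 kept both calls in every such fit, and each other shared member lost a call in some. KNL1 and NUSAP1 passed the test with DFO, and were -0.08 (adjusted p = 0.0688) and -0.07 (adjusted p = 0.0943) with T003. TTK, CENPA, CDCA8, KIF23, ARHGEF39 and NCAPH passed it with T003, and with DFO were -0.12 (adjusted p = 0.073), -0.02 (adjusted p = 0.905), -0.05 (adjusted p = 0.29), -0.07 (adjusted p = 0.0952), -0.02 (adjusted p = 0.921) and -0.07 (adjusted p = 0.165). All 8 values were below 0 with both agents, and the difference between the agents in this change was not tested. The call of KNL1 ended on leaving out DFO 6 h replicate 1 (adjusted p = 0.071) or DFO 24 h replicate 2 (0.0851) and after removal of the GC and length trend (-0.07, adjusted p = 0.0905, beside -0.14), and that of NUSAP1 on leaving out DFO 6 h replicate 1 (adjusted p = 0.142) or either DFO 24 h library (0.0785 and 0.113). Of the genes called with T003, NCAPH kept its call under every alternative run, whereas that of TTK ended on leaving out either T003 6 h library (adjusted p = 0.0754 and 0.162) or either T003 24 h library (0.11 and 0.0911), that of CENPA on leaving out either T003 6 h library (adjusted p = 0.0845 and 0.18) or either T003 24 h library (0.124 and 0.138), and that of CDCA8 on leaving out T003 6 h replicate 2 (adjusted p = 0.126) or either T003 24 h library (0.0594 and 0.0729). The call of KIF23 ended on leaving out either T003 6 h library (adjusted p = 0.076 and 0.083) or T003 24 h replicate 1 (0.0978), and that of ARHGEF39 on leaving out T003 6 h replicate 2 (adjusted p = 0.0673) or T003 24 h replicate 1 (0.0694). The 4 that rose with T003 were CDC25A (0.11, adjusted p = 0.0148), PKMYT1 (0.18, adjusted p = 0.00737), MAD2L1 (0.13, adjusted p = 0.0144) and ESPL1 (0.09, adjusted p = 0.0371), with DFO values of 0.05, 0.07, 0.06 and 0.04. Across the 60 members, which are not independent replicates, the log2 fold changes of the 2 agents had a Pearson r of 0.896, or 0.783 without CENPF and BUB1, and 52 had the same sign. Over all 20125 genes 13190 had the same sign, Pearson's r was 0.092 and Spearman's rho 0.288, where the members had a rho of 0.807. Those genes include many at far lower levels than the members, and neither the correlation nor the sharing was computed for genes at like levels. Agreement between the agents is thus not shown to be particular to the members. Without DFO 6 h replicate 1, DFO 24 h replicate 1 or DFO 24 h replicate 2, far fewer members fell with DFO, as did a smaller share of all genes. The members' median was then -0.068, -0.088 and -0.069. The same held for T003 without T003 6 h replicate 2 (median -0.084). Without any 1 of the T003 libraries fewer members or none rose with T003, as did a smaller share of all genes. With the filter of 1 CPM in 2 libraries, 26 members fell with DFO and 31 with T003, where 8.99% and 10.7% of genes did.

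**Figure D5:**
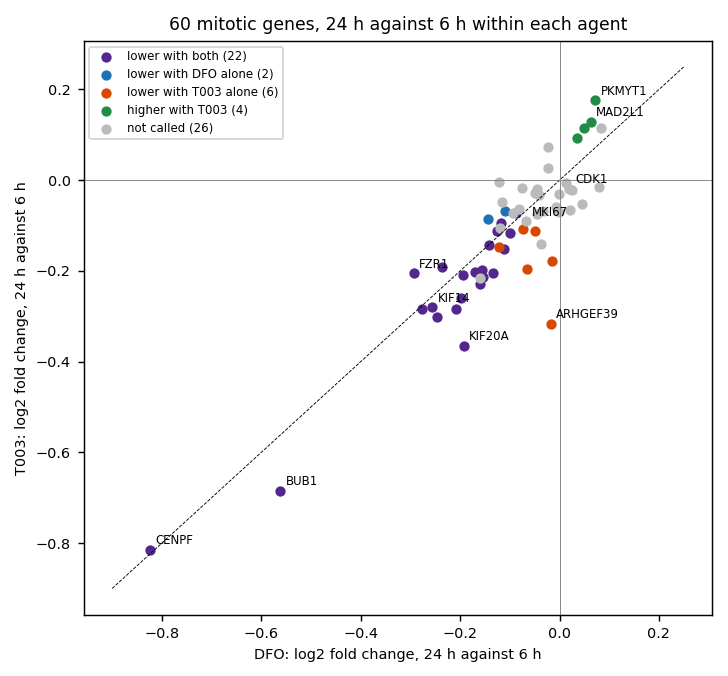
Log2 fold change of each member from 6 h to 24 h of DFO (x axis) and of T003 (y axis), 1 point per gene, coloured by the calls made with each agent, and the dashed line marks equal values. Most points lie below 0 on both axes, with CENPF and BUB1 at the lower left.

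T003 and DFO were compared directly at matched times. At 24 h 2 of 60 members were lower with T003 than with DFO, where 0.457% of all genes were lower. They were KIF20A (-0.19, SE 0.04, adjusted p = 0.0478) and ARHGEF39 (-0.31, SE 0.063, adjusted p = 0.0432), and for both the libraries of the 2 agents did not overlap. None was higher in the edgeR test, where 0.884% of all genes were, while limma-voom called 0 higher. DESeq2 called 9 members lower and 3 higher, where it called 3.50% and 7.04% of the 8420 genes with an adjusted p. At an unadjusted p under 0.05 there were 18 members lower and 4 higher, against 13.9% of all genes in either direction. KIF20A lost its call in every fit that left out 1 library other than an untreated one (adjusted p = 0.0569 to 0.224). ARHGEF39 lost it when any 1 of the 10 libraries was left out (adjusted p = 0.0513 to 0.255). The members' median difference was -0.045, beside 0.0000 over all genes tested. Their values were below 0 for 44 of 60, a share not counted over all genes. The difference was -0.05 (SE 0.043, adjusted p = 0.685) for CENPF, -0.16 (SE 0.036, adjusted p = 0.0665) for BUB1 and 0.10 (SE 0.026, adjusted p = 0.0945) for CDC25A, none of which passed the test. At 6 h no member passed the edgeR test and 6 had an unadjusted p under 0.05, all lower with T003, where 0.00% of all genes were called and 6.63% had such a p, and neither DESeq2 nor limma-voom called any.

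The change was set beside transcript length. MKI67 has the longest transcript of the 60 (12716 bases, GENCODE v44 MANE Select), followed by ASPM (10863), CENPF (10290), KNL1 (9266) and CENPE (8541). At 24 h against untreated cells, CENPF alone of these was called with DFO, and CENPF, CENPE and ASPM with T003. From 6 h to 24 h, CENPF, CENPE and ASPM were called lower with both agents and KNL1 with DFO. KNL1 was -0.03 with DFO and -0.04 with T003 against untreated cells, and ASPM -0.06 and -0.11. Of the 15 longest members, all of 5116 bases or more, 3 fell with DFO and 8 with T003 at 24 h, and of the 45 others 9 and 19. Across members Spearman's rho of length with the log2 fold change against untreated cells was -0.068 for DFO and -0.101 for T003, as a description. From 6 h to 24 h it was -0.368 with DFO and -0.253 with T003, over 16965 genes with a length -0.092 and -0.008, and over the 7920 of these with a log2 CPM over 4 -0.240 and -0.066. After each library's trend with GC content and length was removed, 16 members fell with DFO and 31 with T003 against untreated cells, where 3.69% and 6.5% of all genes fell. From 6 h to 24 h of DFO 18 members then fell, where 4.48% of all genes did, the members' median moved from -0.085 to -0.060, and the calls of CENPE, HMMR, KNL1, ASPM, DLGAP5 and SMC4 ended (adjusted p = 0.0534 to 0.496). From 6 h to 24 h of T003 29 fell, where 6.79% of all genes did, the median moved from -0.092 to -0.083, and the calls of BUB1B, ESPL1 and SMC4 ended (adjusted p = 0.0505 to 0.168).

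Related genes outside the 60 were counted in the same comparisons at 24 h with untreated cells, in which, as above, 3.27% of all genes fell and 3.43% rose with DFO, and 5.44% fell and 7.10% rose with T003. With the filter of 1 CPM in 2 libraries these shares were 6.42% and 5.89% with DFO, and 10.4% and 11.9% with T003. The lists below were not recounted with that filter, and they too were chosen with earlier results of these data known. Of 33 other kinetochore and centromere genes, 4 fell with DFO (12.1%) and 6 with T003 (18.2%), and 1 rose with T003 (3.03%), a smaller share than of all genes. Those that fell with T003 include MIS18A, which helps load CENPA (-0.07 with DFO, adjusted p = 0.395, and -0.25 with T003, adjusted p = 0.00235). Another is DSN1, which links the centromere to NDC80 (-0.16 with DFO, adjusted p = 0.00992, and -0.17 with T003, adjusted p = 0.00406). The DFO call of DSN1 ended on leaving out untreated replicate 2 (adjusted p = 0.13) or DFO 24 h replicate 2 (0.114), and its T003 call on leaving out untreated replicate 2 (adjusted p = 0.0535). Of 30 other genes of the spindle, motors and cytokinesis, 6 fell with DFO (20%) and 12 with T003 (40%). In the same order of agents, they were led by CKAP2 (-0.40, adjusted p = 5.2e-05, and -0.49, adjusted p = 1.02e-05) and CKAP2L (-0.23, adjusted p = 0.00141, and -0.30, adjusted p = 0.000167), both microtubule-associated proteins of the mitotic spindle. Of 19 APC/C subunits and inhibitors, none was called with DFO by edgeR, DESeq2 or limma-voom, and 2 had an unadjusted p under 0.05. With T003 3 fell (15.8%), with CDC27 at -0.14 (adjusted p = 0.003), and 1 rose, MAD1L1, the partner of MAD2, at 0.25 (adjusted p = 0.00405). Condensin, cohesin and sororin genes numbered 16, of which 2 fell with DFO (12.5%), and 4 fell (25%) and 1 rose (6.25%) with T003, with SMC3 at -0.20 (adjusted p = 0.00132) and STAG1 at -0.13 (adjusted p = 0.0058). Of 11 genes of MuvB, B-MYB and DREAM, the complexes that switch CHR promoters on and off, 1 fell with DFO, and 1 fell and 1 rose with T003, single genes from which no share is read. MYBL2 (B-MYB) was 0.04 (adjusted p = 0.527) with DFO and 0.15 (adjusted p = 0.00627) with T003, and RBL1 (p107) -0.09 (adjusted p = 0.245) and -0.21 (adjusted p = 0.00769). The T003 call of MYBL2 ended on leaving out untreated replicate 2 (adjusted p = 0.0594) or T003 24 h replicate 1 (0.0676), and that of RBL1 on leaving out untreated replicate 2 (adjusted p = 0.0813) or T003 24 h replicate 2 (0.0713). The 40 core genes of DNA replication were counted separately: 2 fell with DFO (5%, near the share of all genes) and none rose by edgeR, DESeq2 or limma-voom, although 2 were higher at an unadjusted p under 0.05. With T003 3 fell (7.5%, also near it) and 8 rose (20%), with RRM2, a subunit of ribonucleotide reductase, at 0.13 (adjusted p = 0.00214) and PCNA, the sliding clamp of the polymerases, at -0.13 (adjusted p = 0.00355). Their median log2 fold change was -0.016 with DFO and 0.034 with T003.

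The sources used here do not give whether the authors' counting used strand, so reads of a member and of a gene whose exons overlap it on the other strand cannot be told apart. By GENCODE v44 no exon of CENPF or BUB1 overlaps another gene. KIF20A shares exon bases with BRD8 and CDC23, CDC25C with FAM53C, FZR1 with MFSD12, FOXM1 with ITFG2, NCAPG with LCORL and ARHGEF39 with CCDC107 and CA9, all on the opposite strand, and the values of these members are uncertain to that extent. CDC25C, at a mean of 15.5 CPM beside 106 CPM for FAM53C, has the least favourable ratio of these. The list is not complete: SMC4 also overlaps TRIM59 and CCNA2 overlaps EXOSC9, on the opposite strand. NUSAP1 overlaps OIP5-AS1 on the same strand (means of 185.7 and 209.7 CPM), which counting by strand would not resolve.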

How the data were processed

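RNA was measured by sequencing in 10 libraries of NK-92 cells, 2 in each of 5 groups. The authors deposited 1 table of estimated counts for gene symbols, in whole numbers and without normalization. Per the submitters' processing notes, the tools were fastp 0.21.0, HISAT2 2.2.1 and StringTie 2.1.6, with the genome build hg38. Counts made by StringTie come from read coverage, so counting intervals do not apply and none are given.

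All 10 libraries entered 1 edgeR 4.0.16 model (R 4.3.3) with group as its only term, TMM scaling and filterByExpr with a minimum count of 10, which left 20125 genes and 5 residual degrees of freedom. The quasi-likelihood F-test was used, p-values were Benjamini-Hochberg adjusted across the tested genes, and a gene is called at an adjusted p under 0.05. Each SE was taken as the log2 fold change over the root of its F value. CENPF was set against CDK1 and MKI67 by an exact permutation test over libraries (SciPy 1.17.1) on log2 CPM with a prior count of 2. The fits were tested on simulated counts with known changes. Those changes were larger than most of the members' called changes, so the runs did not cover changes of that size.

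Alternatives were scaling by RLE, omitting the filter, keeping genes with 1 CPM in 2 libraries, DESeq2 1.42.0, limma-voom (limma 3.58.1), the replicate number as a block, the compared groups alone, and leaving out each library. Removal of each library's trend with GC content and length (GENCODE v44) was added after the data were seen. Members given by value in every library are CDK1, MKI67, CENPF and, for each role, the 2 with the smallest p after 24 h of each agent, with those that moved against their class or differed between agents. Of each related gene list the 2 genes with the smallest p after 24 h of T003 are named, and other members are named by count or range. The 60 members, the roles and the lists were chosen with earlier results of these data known. Promoter sequences came from RefSeq (GRCh38.p14), with 1 window per gene, that nearest the MANE start. The level per kilobase of SPC24 is not reported here.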

Additional observations from a re-analysis of the deposited data

Results flagged for a closer look

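The effect of the 2 agents differed by a direct test for 2 members, with all 10 libraries in the fit. KIF20A was lower with T003 than with DFO at 24 h by a log2 difference of -0.19 (edgeR, adjusted p = 0.0478, 2 libraries per agent), and ARHGEF39 by -0.31 (adjusted p = 0.0432). The KIF20A call ended in 8 of the 10 fits that left out 1 library, those of an untreated library excepted (adjusted p = 0.0569 to 0.224), in the blocked fit (0.0573) and in that of the compared groups alone (0.0855). The ARHGEF39 call ended in all 10 (adjusted p = 0.0513 to 0.255) and with the compared groups alone (0.102). For both genes the libraries of the agents did not overlap. ARHGEF39 has exon bases in common with CCDC107 and CA9, and KIF20A with BRD8 and CDC23. With 2 libraries per group no library could be tested for standing apart from its group.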

How the results depend on the processing

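Of 116 called results for single genes, 56 kept their call under every alternative run, among them those of CENPF and BUB1 at 24 h against untreated cells and against 6 h. Under the settings other than leaving out a library, 884 of 928 values kept their call, 44 were no longer past the threshold and none reversed. When 1 library was left out, 934 of 1160 kept it, 226 did not and none reversed. Whether depth limits these calls was not tested.

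Counts of members that fell, with DFO and T003 against untreated cells at 24 h, ran from 5 to 13 and from 15 to 28 over the fits that left out 1 library, and those that rose from 0 to 2 and from 2 to 2. From 6 h to 24 h those that fell ran from 9 to 23 with DFO and from 17 to 29 with T003, and those that rose with T003 from 0 to 5. Members lower with T003 than with DFO at 24 h ran from 0 to 3. With the compared groups alone, 0 members rose with DFO at 24 h against untreated cells, 15 fell from 6 h to 24 h of DFO, and 0 were lower with T003 than with DFO at 24 h, from fewer samples. The shares of all genes were 2.17%, 3.18% and 0.0642%, in that order. With no filter, 1 member rose with DFO at 24 h, 1 rose with DFO at 6 h, and 6 were lower with T003 than with DFO at 24 h, as also under the filter of 1 CPM (6) and after removal of the GC and length trend (6), under which 2 rose from 6 h to 24 h of DFO. The shares of all genes with no filter were 2.12%, 0.0359% and 0.382%. Under the filter of 1 CPM the share was 1.17%, and after removal of the trend the shares were 0.75% and 6.09%. DESeq2 called 3 lower and 6 higher with DFO at 6 h, 2 higher with T003 at 6 h, 9 lower and 3 higher with T003 than with DFO at 24 h, and 1 higher from 6 h to 24 h of DFO, where it called 6.2%, 5.36%, 0.55%, 3.50%, 7.04% and 11.1% of all genes with an adjusted p, in that order. Limma-voom called 2 higher with DFO at 6 h, where it called 0.0646% of all genes higher. In the fits that left out 1 library the share of all genes called moved as well. The cause of these moves was not tested.

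With the replicate number as a block, 1 member rose with DFO at 24 h and 1 was lower with T003 than with DFO at 24 h, where 2.99% and 0.204% of all genes did so. Replicates only share a number: over 10 pairs of groups the correlation of same-numbered deviations was -0.152 to 0.179, with 2 over 0.1, so they were not treated as paired.

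Values that were not called reversed in 3 cases: ARHGEF39 with DFO at 24 h ran from -0.098 to 0.0097 (without untreated replicate 2), CDK1 from 6 h to 24 h of DFO from -0.021 (without DFO 6 h replicate 2) to 0.076, and MKI67 in that comparison from -0.13 to 0.0039 (without DFO 24 h replicate 2). For CENPF minus CDK1 the difference was -0.78 with the 24 h DFO libraries alone and -0.74 with those of T003 alone, and for CENPF minus MKI67 -0.65 and -0.69, each with an exact permutation p of 0.0714, the smallest that 2 against 6 libraries can give. Over leaving out 1 library these differences ran from -0.79 to -0.73 and from -0.71 to -0.65.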

Other observations

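Subunits of the same mitotic complexes differed in transcript level per kilobase of transcript (mean of 2 libraries in untreated cells, as a description with no test). Of the NDC80 complex, which binds microtubules at the kinetochore, the 3 subunits given here are NDC80 at 14.8 CPM per kb, NUF2 at 37.2 and SPC25 at 25.4. In the chromosomal passenger complex BIRC5 was at 84.2 CPM per kb, AURKB at 42.9, CDCA8 at 86.7 and INCENP at 39.1. Of condensin, SMC2 was at 23.96 and SMC4 at 93.9 CPM per kb, and the condensin I subunits NCAPG and NCAPH at 31.04 and 21.8. After 24 h of T003 these levels were 12.7, 34.4 and 25.9 CPM per kb for NDC80, NUF2 and SPC25, and 23.4, 93.6, 26.9 and 19.3 for SMC2, SMC4, NCAPG and NCAPH. The 3 CDC25 phosphatases stood at 36.8 (CDC25A), 40.1 (CDC25B) and 8.13 (CDC25C) CPM per kb in untreated cells.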
